A study of Mus musculus with 6 samples.

Results

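The genes described here are the feedback genes of cytokine signalling Cish, Socs1, Socs2 and Socs3, together with the PIM kinase genes Pim1 and Pim2 and the survival gene Bcl2, which STAT5 can also induce. They were chosen by symbol, and all 7 were found among the 32285 genes counted. Their levels were followed through the cell types of mouse skin in wild-type mice and in mice that lack an enhancer upstream of Il2ra, the gene of the high-affinity subunit of the IL-2 receptor.

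Single-cell 5' RNA libraries (10x Genomics, HT v2 kit) were made from skin of untreated female mice aged 17 to 18 weeks. The 3 groups were wild-type C57/BL6 mice (WT), mice with the enhancer deletion and no hair loss (UP_Del_No_Alopecia) and mice with the same deletion and hair loss (UP_Del_Alopecia). The genotype field gives C57/BL6 for every sample, so the deletion is known from the sample titles. The skin was freed of its hypodermis and digested with enzymes for 2 h at 37 °C, and live cells were then sorted on CD45, the pan-leukocyte surface protein. Each group thus gave 1 CD45-positive and 1 CD45-negative library, 6 in all. How many mice were pooled per library the sources used here do not say.

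Cytokines such as IL-2, IL-7 and IL-15 act through receptors whose JAK kinases phosphorylate STAT5, and IL-6 and related cytokines act mainly through STAT3. Phosphorylated STAT dimers enter the nucleus and switch on, among other genes, those of the CIS and SOCS proteins, which bind receptors or JAKs and damp the same signal. PIM kinases and the BCL2 protein act on the output side, where they favour growth and survival. In skin these circuits serve T cells and innate lymphoid cells, and, through IL-6 family and interferon signals, keratinocytes, endothelium and melanocytes.

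STAT dimers bind the palindrome TTCNNNGAA, and interferon-induced factors bind elements whose core is GAAA, 2 bases of any kind and GAAA again, so both were looked for on both strands in RefSeq promoter windows of build GRCm38.p6, from 250 bases before to 50 bases after the start site. Of the 7 genes, 6 had a window. TTCNNNGAA was found in 8.30% of all 32851 windows and at least 2 times in 0.457% of them, and the interferon core in 3.44%. The stretches with matches in Cish, Socs3 and Socs1 are shown because these genes respond to different STATs. Capitals mark the matched bases, and each sequence is written 5′ to 3′ on the gene's strand.
Cish, chr9:107296654-107296683, plus strand: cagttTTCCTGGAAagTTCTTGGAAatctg
Socs3, chr11:117969367-117969616, minus strand: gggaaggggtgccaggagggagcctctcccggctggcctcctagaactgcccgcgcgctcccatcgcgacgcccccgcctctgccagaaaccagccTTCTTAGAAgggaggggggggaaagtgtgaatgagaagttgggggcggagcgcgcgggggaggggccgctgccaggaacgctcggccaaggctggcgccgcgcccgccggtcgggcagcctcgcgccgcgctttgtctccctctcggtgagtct
Socs1, chr16:10785537-10785786, minus strand: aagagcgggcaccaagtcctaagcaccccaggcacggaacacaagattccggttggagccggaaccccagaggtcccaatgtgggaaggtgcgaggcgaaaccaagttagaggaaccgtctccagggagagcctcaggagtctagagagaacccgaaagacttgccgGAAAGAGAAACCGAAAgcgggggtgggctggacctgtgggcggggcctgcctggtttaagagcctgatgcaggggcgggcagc

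Cish held 2 matches of TTCNNNGAA, at positions 1 and 12 of the RefSeq transcript, in a stretch that lies inside the GENCODE span of the gene. Socs3 held 1 match, which begins at position -154 from its RefSeq start site and also lies inside the GENCODE span of the gene. The Socs1 window held 2 overlapping matches of the interferon core, beginning at positions -83 and -77, and none of TTCNNNGAA. Neither motif was found in the windows of Pim1, Pim2 and Bcl2. A match is a description of the letters in these windows.

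The genes differ in how much of their length is exon. In GENCODE vM21 (GRCm38), Cish lies at chr9:107296026-107302784, Socs1 at chr16:10782240-10785536, Socs2 at chr10:95385362-95417180, Socs3 at chr11:117966079-117970047, Pim1 at chr17:29490753-29496112, Pim2 at chrX:7878262-7883432 and Bcl2 at chr1:106538178-106714274. Exons make up 94.97% of the length of Cish, 88.2% of Socs1 and 5.20% of Bcl2, which spans 176097 bases. Counted antisense genes overlap Cish (Gm17041), Pim1 (Gm26885) and Bcl2 (D630008O14Rik).

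The kept CD45-positive cells numbered 6307 in wild type, 3236 in no alopecia and 8846 in alopecia, at medians of 4089 to 4836 UMIs per cell, and the CD45-negative cells 3285, 14391 and 4797, at 5005 to 5641 UMIs. The cell filter removed 26.7%, 7.56% and 30.4% of barcodes from the CD45-negative libraries, in the same order. From the CD45-positive libraries it removed 3.21%, 1.86% and 4.20%. The part of this loss in the ratios was not tested beyond recomputing them without the filter. Ptprc, which encodes CD45, stood at 657 to 792 CPM in the CD45-positive and 0.0688 to 0.725 CPM in the CD45-negative libraries. As a check of the labels, Il2ra in regulatory T cells stood at 960 CPM in wild type, 388 in no alopecia and 391 in alopecia, and over whole CD45-positive libraries at 240, 150 and 134 CPM. Pairs of libraries shared 24 to 228 cell barcodes, at most 2.57% of either library. T-cell receptor RNA was found outside T cells: in CD45-positive libraries 57.2% to 73.0% of macrophages held at least 3 of its UMIs, against 1.57% to 2.76% of CD45-positive fibroblasts. Hemoglobin RNA varied between libraries, up to 9563 CPM in wild-type melanocytes and 2284 CPM in CD4 T cells of alopecia.

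Cell types were named from marker genes of the clusters, so every name below stands for cells like that type (regulatory T-like, and so on). Levels are counts per 1000000 UMIs (CPM) of the summed cells of a type in 1 library. With 1 library per group no difference has a replicate check and no test was possible, so the 95% intervals (exact Poisson for a level, exact binomial for a log2 ratio or a share) cover counting error only and not the spread between mice. A ratio was called where a type had at least 100 cells in both libraries, the 2 levels lay at least 1.5-fold apart, the interval left out equality and both libraries together held at least 20 UMIs of the gene. Where a type is called highest or lowest below, this is among the named types of at least 100 cells.

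**Figure D1:**
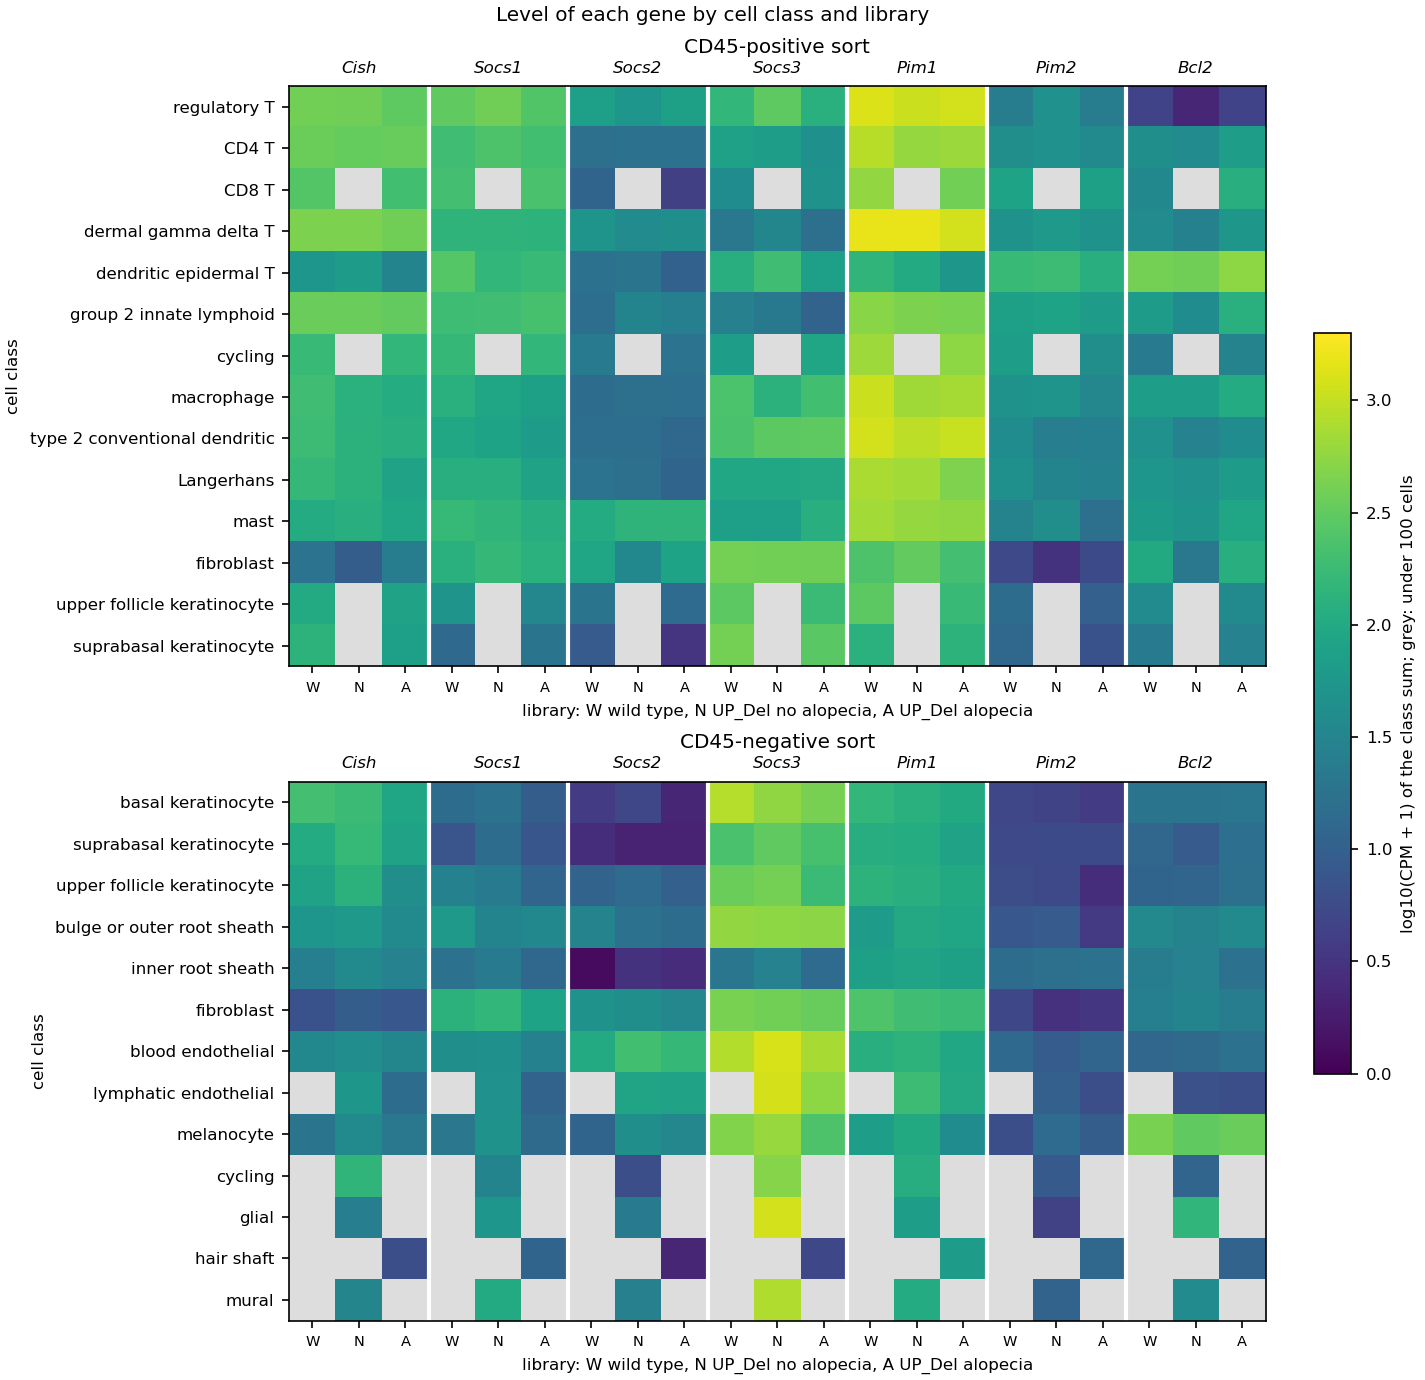
Levels of the 7 genes, as log10(CPM + 1), in each cell type of at least 100 cells (vertical) and each library (horizontal, wild type, no alopecia, alopecia), CD45-positive and CD45-negative sorts. Cish is highest in dermal gamma delta T cells, Pim1 in these or in regulatory T cells, Socs3 in CD45-negative types, and Bcl2 in dendritic epidermal T cells and melanocytes.

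Counted over genes and types, the CD45-negative comparison of alopecia with no alopecia had the largest share of calls among the pairs tested. Of 60 pairs of a gene and a type tested there, 1 was called higher and 23 lower, beside 5.69% higher and 4.46% lower among all gene and type pairs. The median ratio of the pairs was -0.45. Against wild type, alopecia had 1 higher and 12 lower of 50 pairs (all genes 3.4% and 3.96%), and no alopecia had 9 higher and 3 lower of 54 (4.37% and 6.02%).

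In the CD45-positive sort, alopecia against no alopecia gave 8 higher and 12 lower of 67 pairs (all genes 6.4% and 3.66%), with 5 of the 8 being Bcl2. Alopecia against wild type gave 5 higher and 23 lower of 95 (4.77% and 4.58%), and no alopecia against wild type 5 higher and 9 lower of 67 (3.36% and 5.67%). The comparisons share libraries, so their counts are not independent of each other. Pairs with at least 100 UMIs, whose counting error is smaller, gave similar shares. In the CD45-negative sort they were 1 higher and 19 lower of 47 for alopecia against no alopecia (all genes 4.87% and 4.44%), 0 and 8 of 29 for alopecia against wild type (2.49% and 3.36%) and 6 and 3 of 44 for no alopecia against wild type (4.43% and 5.5%). In the CD45-positive sort they were 5 and 9 of 50 (6.46% and 3.62%), 3 and 18 of 74 (3.86% and 4.48%) and 3 and 7 of 51 (2.78% and 5.85%) in the same order.

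**Figure D2:**
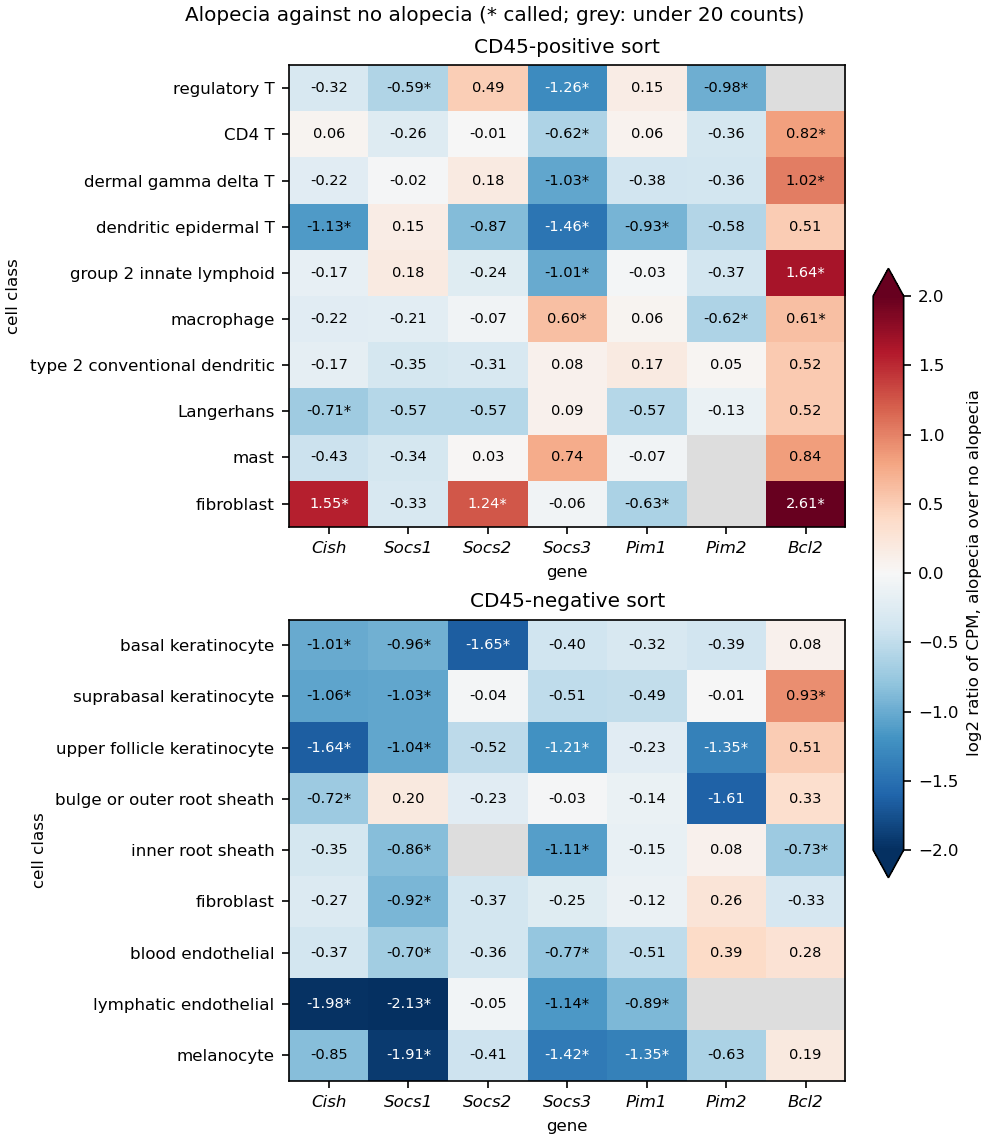
Log2 ratio of alopecia against no alopecia for each gene (horizontal) and cell type (vertical) in both sorts, with called pairs starred and pairs under 20 UMIs in grey. Cish, Socs1 and Socs3 are lower through most CD45-negative types, while Bcl2 is higher in the CD45-positive types.

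Cish encodes CIS, the first described member of the SOCS family and a direct STAT5 target that binds cytokine receptors. Among CD45-positive cells it was highest in dermal gamma delta T cells, at 438 CPM in wild type, 451 in no alopecia and 386 in alopecia. Regulatory T cells held 394, 380 and 305 CPM in the same order, CD4 T cells 356, 329 and 343, and group 2 innate lymphoid cells 353, 355 and 317. In these 4 lymphoid types no ratio between libraries was called, and the largest was -0.37 (log2, interval -0.52 to -0.22), in regulatory T cells of alopecia against wild type. In regulatory T cells, Cish thus stood at a log2 ratio of -0.05 (-0.25 to 0.14) between no alopecia and wild type, beside one of -1.31 for Il2ra.

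After each cell was thinned to 1000 UMIs, a Cish UMI was seen in 33.5%, 33.7% and 29.3% of dermal gamma delta T cells (73.2%, 75.1% and 63.7% before thinning), with 8, 5 and 48 cells left out. The background type was the CD45-positive fibroblast, with 0%, 0% and 3.53%. Median depths before thinning were 4421, 5038 and 3990 UMIs in the gamma delta T cells and 4039, 3401 and 2997 in the fibroblasts. A share of 0 of 94 and of 0 of 233 fibroblasts allows up to 3.85% and 1.57%.

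Cish was lower in alopecia in several other leukocytes. Dendritic epidermal T cells, the gamma delta T cells that live between keratinocytes, held 53.7, 65.7 and 30.01 CPM, a log2 ratio of -1.13 (-1.82 to -0.43) for alopecia against no alopecia and -0.84 against wild type. In Langerhans cells, the antigen-presenting cells of the epidermis, the levels were 156, 130.3 and 79.8 CPM (-0.71 and -0.96). Macrophages (191, 127 and 109 CPM) and type 2 dendritic cells (181, 131 and 116 CPM) were lower in alopecia than in wild type, at -0.82 and -0.64. These 3 types also held T-cell receptor RNA, and the part of free RNA in their Cish counts was not tested.

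In the CD45-negative sort Cish was highest in basal keratinocytes in each library, and the alopecia library stood below the no-alopecia library in all 9 types compared. Not all keratinocytes held much of it, and in alopecia the hair shaft was the lowest type, at 5.12 CPM. Basal keratinocytes held 206 CPM in wild type, 179 in no alopecia and 88.9 in alopecia, so that the alopecia library stood apart from both others (-1.01, -1.17 to -0.85, against no alopecia and -1.21, -1.44 to -0.98, against wild type). Suprabasal keratinocytes held 106, 163 and 78.3 CPM, the no-alopecia library being highest (-1.06, -1.24 to -0.88, for alopecia against no alopecia). Keratinocytes of the upper follicle held 78.4, 130.0 and 41.6 CPM and gave a ratio of -1.64 (-1.87 to -1.42). Lymphatic endothelium had 54.6 CPM (59 UMIs) in no alopecia and 13.8 CPM (8 UMIs) in alopecia, a log2 ratio of -1.98 (-3.26 to -0.91).

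Cells of the bulge or outer root sheath, the stem-cell zone of the follicle, held 52.5, 58.6 and 35.6 CPM of Cish (-0.72 against no alopecia). Dermal fibroblasts held 5.84, 8.29 and 6.89 CPM, near the lowest level in the sort. Within clusters, Cish was again lower in alopecia than in no alopecia in both basal clusters (148 against 227 CPM in the one led by Ptgs2 and 37.2 against 103 CPM in the one led by Cbr2) and in both upper-follicle clusters (-1.61 and -1.66). Summed over whole CD45-negative libraries the ratio was -1.77, and no alopecia stood above wild type by 1.15. Basal keratinocytes numbered 122 of 3285 kept cells in wild type, 2876 of 14391 in no alopecia and 338 of 4797 in alopecia. Within them Cish stood at 206 CPM in wild type and 179 in no alopecia. The part of these cell shares in the whole-library ratios was not tested.

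**Figure D3:**
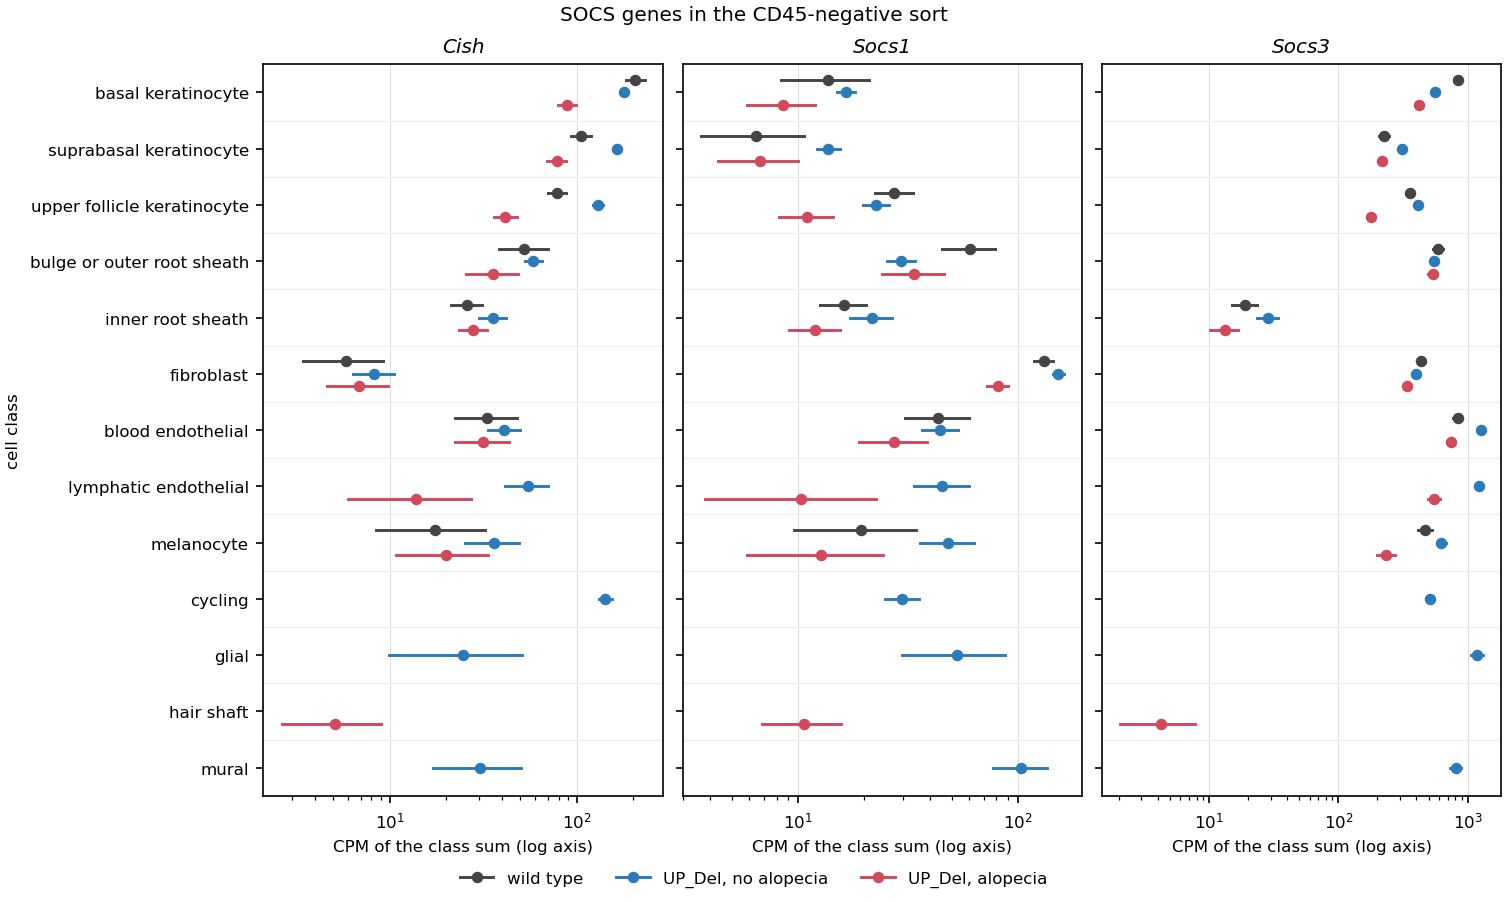
Levels (horizontal, CPM, log axis) of Cish, Socs1 and Socs3 in the CD45-negative cell types (vertical), 1 point per library with its 95% counting interval. The alopecia points lie below the no-alopecia points for Cish and Socs3 in all 9 types and for Socs1 in all but the bulge or outer root sheath.

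Socs1 encodes a direct inhibitor of JAK kinases that is induced by interferon gamma and also by STAT5. It was highest in regulatory T cells, at 308 CPM in wild type, 385 in no alopecia and 255 in alopecia, and the ratio of alopecia against no alopecia was -0.59 (-0.79 to -0.39). That call was lost under 4 of 11 other processing choices, the weakest value being -0.30. Dendritic epidermal T cells held 271, 151 and 168 CPM, so that both deletion libraries stood below wild type (-0.85, -1.23 to -0.48, and -0.69, -0.95 to -0.44). Dermal gamma delta T cells were level at 139, 138 and 137 CPM.

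Dermal fibroblasts were the CD45-negative type with most Socs1, at 131, 153 and 80.9 CPM. The alopecia library was lower than no alopecia (-0.92, -1.10 to -0.75) and than wild type (-0.70, -0.91 to -0.49). All 4 fibroblast clusters had less Socs1 in alopecia, from 25.0 against 58.1 CPM in the cluster led by Pi16 to 217 against 324 CPM in the cluster led by Tnfaip6. Melanocytes held 19.3, 48.2 and 12.8 CPM (11, 51 and 9 UMIs), with ratios of 1.32 (0.36 to 2.41) for no alopecia against wild type and -1.91 (-3.12 to -0.88) for alopecia against no alopecia. Lymphatic endothelium had 45.4 and 10.4 CPM (49 and 6 UMIs) in no alopecia and alopecia (-2.13, -3.65 to -0.91).

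Socs1 in the bulge or outer root sheath was not lower in alopecia than in no alopecia, with 60.5 CPM in wild type, 29.5 in no alopecia and 33.8 in alopecia. Both deletion libraries were lower than wild type there (-1.04 and -0.84), and they differed from each other by 0.20 (-0.34 to 0.71). The early response genes described below summed to 37986, 27600 and 26732 CPM in these cells, and their part in the Socs1 levels was not tested. Of the 9 CD45-negative types, 8 were called lower in alopecia than in no alopecia for Socs1.

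Socs2 encodes a SOCS protein that limits growth hormone signalling, which runs through STAT5b. Mast cells, which depend on KIT and STAT5, had the highest level among CD45-positive types of at least 100 cells, with 107, 138 and 140.3 CPM. Migratory dendritic cells, too few for a comparison (47 and 72 cells), held 201 CPM in wild type and 166 in alopecia. In regulatory T cells it stood at 71.5, 52.9 and 74.4 CPM and in dermal gamma delta T cells at 49.98, 38.2 and 43.3, with no ratio called in mast cells or either T-cell type. Group 2 innate lymphoid cells had 14.6, 30.1 and 25.5 CPM (23, 25 and 55 UMIs), and both deletion libraries were called above wild type (1.04, 0.16 to 1.92, and 0.80, 0.07 to 1.57). The second of these calls was lost under 5 of 10 other choices.

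Blood endothelium was the CD45-negative type with most Socs2, at 104 CPM in wild type, 199 in no alopecia and 155 in alopecia. No alopecia was called above wild type (0.93, 0.61 to 1.27), and alopecia stood between the other two (0.57, 0.20 to 0.95, not called). The cluster led by Selp and Sele, genes of venules, made up 8.84%, 24.0% and 13.1% of these cells, and in the other cluster alone Socs2 stood at 96.7, 155 and 109 CPM. Hemoglobin RNA also differed in these cells, at 6303, 8.66 and 2387 CPM, and its part was not tested. In melanocytes Socs2 was at 10.5 CPM in wild type against 43.5 in no alopecia and 32.7 in alopecia (6, 46 and 23 UMIs), with ratios of 2.05 (0.81 to 3.56) and 1.63 (0.30 to 3.22) against wild type. Hemoglobin RNA stood at 9563 CPM in the wild-type melanocytes and at 3.78 and 5.68 CPM in the other libraries, and its part in the ratios was not tested.

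Socs3 encodes the feedback inhibitor of gp130 receptors and is the SOCS gene most tied to STAT3. In the CD45-positive sort it split by cell type. Regulatory T cells held 152 CPM in wild type, 299 in no alopecia and 124 in alopecia, so no alopecia stood above both others (0.98, 0.72 to 1.23, against wild type, and -1.26, -1.51 to -1.01, for alopecia against no alopecia). With regulatory T cells defined by marker UMIs of each cell in place of clusters, the levels were 167, 219 and 168 CPM and the ratios 0.39 and -0.38, which are not calls. The early response genes described below summed to 15365, 14281 and 15066 CPM in these cells, and their part in the Socs3 levels was not tested.

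Socs3 followed the same order in dendritic epidermal T cells, with 118, 195 and 71.0 CPM (0.73, 0.33 to 1.12, and -1.46, -1.88 to -1.04). CD4 T cells held 76.5, 69.0 and 44.7 CPM, and alopecia was called below wild type (-0.77, -1.14 to -0.42) and below no alopecia (-0.62). In marker-defined CD4 T cells the ratio to wild type was 0.01, and in the smaller CD4 cluster 0.10. Group 2 innate lymphoid cells had 26.1, 20.5 and 10.2 CPM (-1.36 and -1.01 for alopecia).

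Dermal gamma delta T cells had 19.99, 32.0 and 15.6 CPM of Socs3, a ratio of 0.68 for no alopecia against wild type. Inside the 2 larger clusters of this class that ratio was -0.39 and -0.52, and the clusters' shares differed between libraries: the cluster led by Bcl2a1a and Cd163l1 made up 78.1%, 36.6% and 38.6% of the class and the cluster led by Trdv5 and Il17f 7.19%, 58.7% and 46.8%. For alopecia against no alopecia the ratio was -1.03 (-1.57 to -0.49) in the class and -0.56 and -0.92 in the 2 clusters.

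Among myeloid cells the order also varied by type. Macrophages held 234, 132 and 200 CPM of Socs3, lowest in no alopecia, and the ratio of alopecia against no alopecia was 0.60 (0.33 to 0.88), a call that was lost under 8 of 9 other choices. Type 2 dendritic cells stood at 223, 289 and 306 CPM and Langerhans cells at 91.7, 90.9 and 96.9, with none called. Mast cells had 71.4, 71.0 and 118 CPM (0.73, 0.06 to 1.43, for alopecia against wild type).

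The highest Socs3 levels were in CD45-negative cells. Blood endothelium held 835 CPM in wild type, 1270 in no alopecia and 745 in alopecia (-0.77, -0.88 to -0.66, for alopecia against no alopecia). In its larger cluster, led by Cd36 and Flt1, the levels were 843, 1192 and 491 CPM (-1.28, -1.43 to -1.13), so the difference was larger there than in the class. Lymphatic endothelium had 1213 CPM in no alopecia and 549 in alopecia (-1.14, -1.33 to -0.97).

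Melanocytes, the pigment cells of the follicle, held 471, 626 and 234 CPM of Socs3, and alopecia was lower than both others (-1.42, -1.67 to -1.17, and -1.01, -1.29 to -0.72). Keratinocytes of the upper follicle had 361, 411 and 177 CPM, again with alopecia lowest (-1.21 and -1.02). Basal keratinocytes fell in a different order, with 848, 557 and 421 CPM, so that both deletion libraries were called below wild type (-0.61 and -1.01) while the 2 differed from each other by -0.40 (-0.48 to -0.33). The bulge or outer root sheath was level at 587, 549 and 538 CPM.

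A Socs3 UMI was seen, after thinning, in 33.7%, 46.6% and 25.1% of blood endothelial cells (48.4%, 63.6% and 35.9% before) with 13, 34 and 23 cells left out. The inner root sheath of the same libraries, far deeper at medians of 16083 to 18314 UMIs against 3447 to 3500 in endothelium, gave 0.844%, 1.34% and 0.794%. Fibroblasts, at 437, 401 and 337 CPM of Socs3, had no call as a class, and their clusters differed: the cluster led by Pi16 had 142 CPM in no alopecia and 66.5 in alopecia (-1.10), while the cluster led by Tnfaip6, a gene of inflamed stroma, had 783 and 884 (0.18).

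Pim1 encodes a serine-threonine kinase that needs no activation step, and its RNA alone was measured here. It was a leukocyte transcript, at 1556, 1533 and 1180.0 CPM in dermal gamma delta T cells, 1341, 1081 and 1202 in regulatory T cells and 1186, 935 and 1054 in type 2 dendritic cells, with none of these ratios called. In dendritic epidermal T cells it stood at 145 CPM in wild type, 104 in no alopecia and 54.9 in alopecia, the lowest of the lymphoid types. There alopecia was below wild type (-1.40, -1.82 to -0.99) and below no alopecia (-0.93, -1.45 to -0.39), but the second ratio was 0.01 when doublets were removed at 0.8% per 1000 barcodes.

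Macrophages had more Pim1 in wild type (1078 CPM) than in no alopecia (681) or alopecia (711), at ratios of -0.66 and -0.60. Langerhans cells stood at 756, 688 and 463 CPM (-0.71, -0.81 to -0.61, for alopecia against wild type). Over the CD45-positive types Pim1 in alopecia lay below wild type in 13 of 14, with a median ratio of -0.34. In the CD45-negative sort its levels were 244, 191 and 175 CPM in fibroblasts, the highest type, and it was called lower in alopecia than in no alopecia in melanocytes (101 against 39.8 CPM, -1.35) and lymphatic endothelium (180 against 96.7 CPM, -0.89).

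Pim2 encodes a related kinase with a known part in lymphocyte survival. Dendritic epidermal T cells led the named types with 169, 182 and 121 CPM, none of the ratios being called. Regulatory T cells held 23.0, 45.3 and 23.0 CPM (44, 36 and 58 UMIs), so no alopecia stood above both others (0.98, 0.30 to 1.65, and -0.98, -1.61 to -0.34), the order that Socs3 showed in the same cells. In marker-defined regulatory T cells Pim2 stood at 31.3, 39.0 and 24.8 CPM. There the interval of no alopecia (31.1 to 48.2) overlapped that of wild type (26.4 to 36.8) but not that of alopecia (20.6 to 29.6). In CD45-negative types of at least 100 cells Pim2 was at most 16.5 CPM, in the inner root sheath of alopecia, and the 78 hair shaft cells of wild type held 21.2 CPM.

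Bcl2 encodes the founding inhibitor of mitochondrial apoptosis, a survival gene of lymphocytes that IL-7 and IL-15 maintain and that melanocytes need to persist in the follicle. Its levels ranged widely between cell types. Dendritic epidermal T cells held 401 CPM in wild type, 384 in no alopecia and 548 in alopecia, and melanocytes 428, 308 and 352. Dermal papilla cells, too few for a comparison (24, 46 and 55 cells), held 396, 419 and 424 CPM. The 62 natural killer cells of alopecia held 500 CPM. Regulatory T cells, as named by clusters, had 3.65, 1.26 and 3.56 CPM (7, 1 and 9 UMIs), the lowest of the CD45-positive types in each library. With regulatory T cells defined by marker UMIs of each cell, the levels were 36.2, 37.1 and 44.9 CPM. Marker-defined CD4 T cells held 37.2, 29.9 and 59.7 CPM, so the low level depended on how the cells were defined.

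After thinning, a Bcl2 UMI was seen in 28.5%, 37.1% and 37.8% of dendritic epidermal T cells (67.0%, 69.8% and 69.4% before), with 4, 0 and 14 cells left out. In regulatory T cells of similar depth (medians of 3024 to 3354 UMIs against 3224 to 4060) the share was 0.196%, 0% and 0.136%, and 0 of 212 cells allows up to 1.72%. The 0.51 (0.28 to 0.74) between alopecia and no alopecia in dendritic epidermal T cells lay under the 1.5-fold limit.

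Bcl2 was the gene that stood higher in alopecia. In group 2 innate lymphoid cells, which make IL-5 and IL-13 and respond to IL-2 and IL-7, the levels were 65.5, 39.7 and 124 CPM (103, 33 and 268 UMIs). Alopecia was above no alopecia (1.64, 1.12 to 2.21) and above wild type (0.92, 0.59 to 1.26), and no alopecia was below wild type (-0.72, -1.33 to -0.14). These 3 calls held under every alternative that could be computed. Of these cells, 37.0% in wild type, 43.9% in no alopecia and 40.9% in alopecia held at least 3 T-cell receptor UMIs. The part of such cells in the Bcl2 levels was not tested beyond those alternatives. In the larger of the class's clusters the levels were 54.9, 30.4 and 102 CPM.

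CD8 T cells had 33.7 CPM of Bcl2 in wild type (67 UMIs in 450 cells) and 119 in alopecia (74 UMIs in 157 cells), a ratio of 1.82 (1.33 to 2.32), while the no-alopecia library had too few CD8 T cells (58) for a comparison. The weakest value under other choices was 1.02. CD4 T cells had 43.1, 38.1 and 67.3 CPM (0.82, 0.26 to 1.43, for alopecia against no alopecia and 0.65 against wild type). Dermal gamma delta T cells had 38.1, 26.9 and 54.7 CPM (1.02, 0.55 to 1.52, against no alopecia). In the cluster led by Trdv5 the levels were 97.7, 29.1 and 62.8 CPM, so wild type was highest there, and in the cluster led by Bcl2a1a they were 31.7, 26.3 and 37.7.

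Macrophages (70.7, 69.2 and 105 CPM) were called higher in alopecia than in no alopecia for Bcl2, at 0.61, but that call was lost under 6 of 9 other choices. CD45-positive fibroblasts, a class of 101, 255 and 181 cells, had 101, 19.7 and 120 CPM, a ratio of 2.61 between alopecia and no alopecia that became -0.02 at a finer clustering (Leiden resolution 2.0). Malat1, a nuclear RNA, stood at 4859, 3157 and 5510 CPM there, and its part was not tested. Fibroblasts of the CD45-negative sort held 26.0, 30.1 and 23.9 CPM with no call. All 9 CD45-positive types tested had more Bcl2 in alopecia than in no alopecia, with a median of 0.82. Of these, 5 were called, among them the macrophage and fibroblast calls that did not hold under other choices. Over all gene and type pairs of this comparison 6.4% were called higher. The median ratio over all genes was itself above equality, at 0.026 to 0.21 by type.

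Since Bcl2 is mostly intron, nuclear RNA is given beside it. Malat1 stood at 5208, 4709 and 4369 CPM in group 2 innate lymphoid cells, at 4541 and 4314 in CD8 T cells of wild type and alopecia, at 5889, 6547 and 5146 in CD4 T cells and at 5417, 5430 and 4930 in dermal gamma delta T cells. In each of these types it was lowest in the alopecia library, and the part of nuclear RNA in the Bcl2 levels was not tested. The sources used here do not say whether intron reads were counted.

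**Figure D4:**
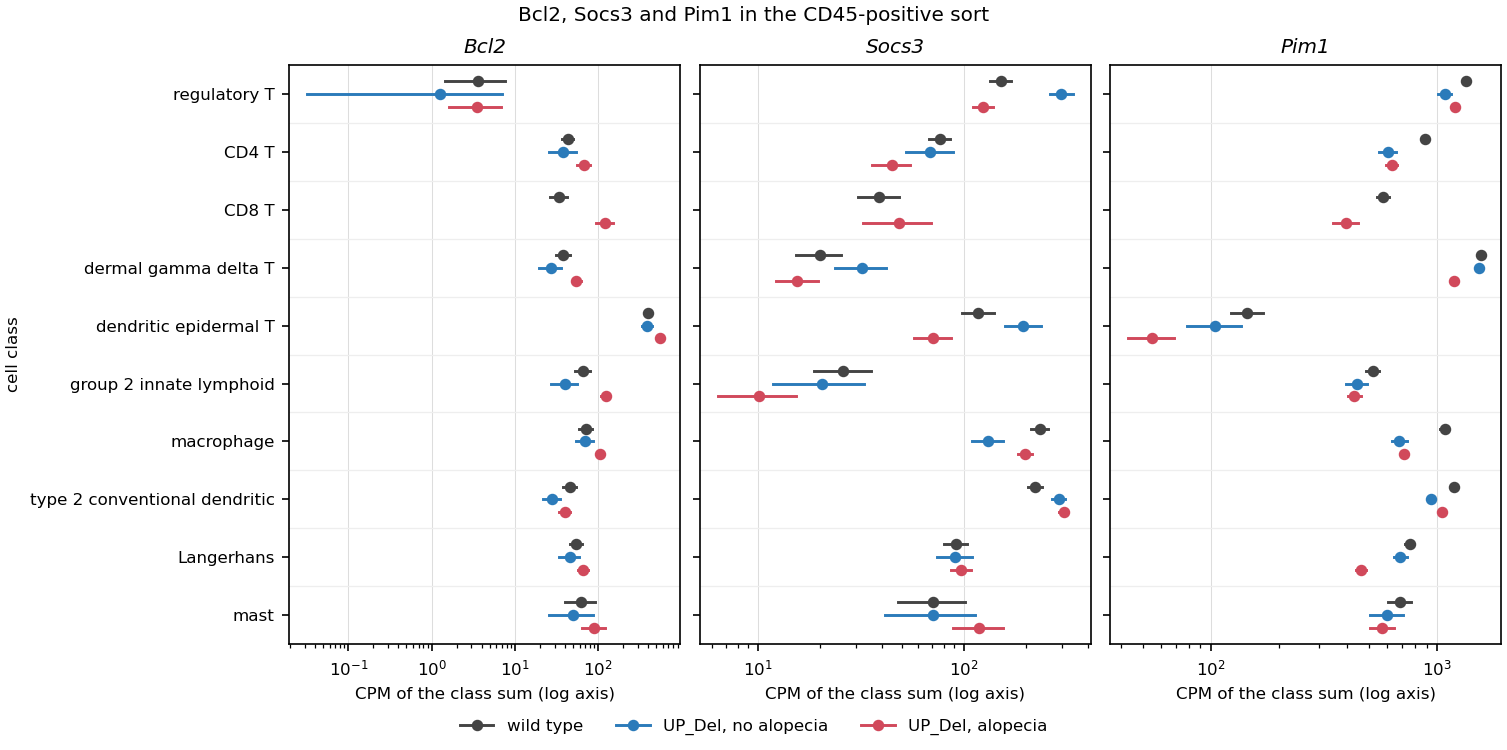
Levels (horizontal, CPM, log axis) of Bcl2, Socs3 and Pim1 in 10 CD45-positive leukocyte types (vertical), 1 point per library with its 95% counting interval. The Bcl2 point of alopecia lies above that of no alopecia in each type with both libraries. Regulatory T cells, as named by clusters, lie far below the rest for Bcl2.

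The rest of the pathway was read from lists of known genes. Of the IL-2 and STAT5 target list, 11 pairs of a gene and a CD45-positive type were higher and 64 lower of 252 in alopecia against wild type, with a median of the types' medians of -0.30 (all genes 4.77% higher and 4.58% lower). This was not particular to that list. The STAT3 target list gave 5 higher and 32 lower of 139 (-0.30) there, and the interferon gamma list 2 and 90 of 223 (-0.52). For no alopecia against wild type, the IL-2 and STAT5 list gave 7 higher and 30 lower of 172 (-0.05, all genes 3.36% and 5.67%). In regulatory T cells of alopecia against wild type, where 2.54% of all genes were lower, 2 of 19 were lower and none higher: Il2ra itself (391 against 960 CPM) and Myc (35.2 against 76.7 CPM). Il2ra is the gene whose enhancer was deleted and served above as the check of the labels. It is thus no separate result here or in the counts of this list over types. In CD8 T cells Gzmb, which encodes granzyme B, stood at 160 against 844 CPM (-2.40), beside the higher Bcl2. The cyclin gene Ccnd3 went the other way in CD8 T cells (292 against 171 CPM) and, against no alopecia, in group 2 innate lymphoid cells (236 against 131 CPM).

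Relatives of the 7 genes, a list of 16 SOCS, PIM and BCL2 family genes, gave 15 higher and 33 lower of 196 CD45-positive pairs in alopecia against wild type (all genes again 4.77% and 4.58%). Dendritic epidermal T cells held 4 of the lower ones. There the BCL2-like survival genes Bcl2a1b (21.2 against 98.7 CPM, -2.22) and Bcl2a1d (10.98 against 59.4 CPM, -2.44) and the third PIM kinase gene, Pim3 (60.7 against 123 CPM, -1.01), were low. Bcl2a1 copies are near-identical, so how their reads were split is uncertain. Socs5 was higher in regulatory T cells of both deletion libraries, at 23.5 CPM in wild type, 42.8 in no alopecia and 50.7 in alopecia (0.87 and 1.11). Other brakes on JAK-STAT signalling, a list of phosphatases and PIAS and CBL genes, gave 5 higher and 7 lower of 196 in the same comparison, no more than the shares over all genes.

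In the CD45-negative sort the STAT3 target list gave 0 higher and 22 lower of 77 pairs in alopecia against no alopecia (median -0.34), and the interferon gamma list 2 higher and 41 lower of 132 (-0.47), beside 5.69% higher and 4.46% lower over all genes. Melanocytes, where Socs3 and Socs1 were low, held 4 of 8 STAT3 targets lower, beside 6.61% of all genes tested in melanocytes, among them Junb (1459 against 3338 CPM) and Cebpd (249 against 595 CPM). The interferon factor gene Irf1 was lower in melanocytes (81.0 against 155 CPM), upper-follicle keratinocytes (99.5 against 227) and blood endothelium (402 against 721).

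Genes of the immediate early response, which tissue digestion is known to induce, moved in the same types. Of that list 1 pair was higher and 74 lower of 197 in the CD45-negative sort for alopecia against no alopecia, with a median of -0.55 (all genes 5.69% and 4.46%). Its 22 genes summed to 16040 CPM in melanocytes of alopecia against 31523 in no alopecia, to 15566 against 26960 in blood endothelium and to 8724 against 16360 in the upper follicle. In the bulge or outer root sheath the sums were 26732 and 27600 CPM, while Socs3 stood at 538 and 549 CPM there and Cish was called lower (35.6 against 58.6 CPM). In the CD45-positive sort the list gave 26 higher and 5 lower of 217 (all genes 6.4% and 3.66%). Its part in the lower Cish, Socs1 and Socs3 levels was not tested.

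**Figure D5:**
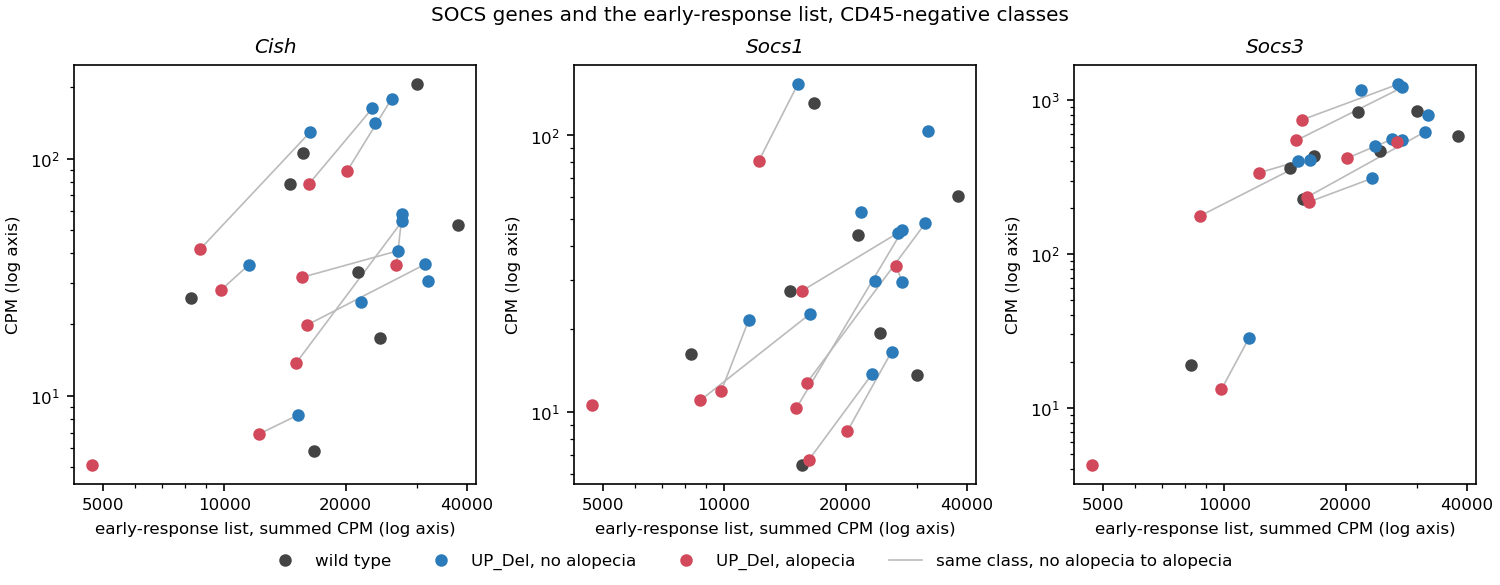
Summed level of the early response list (horizontal, CPM, log axis) against the level of Cish, Socs1 or Socs3 (vertical, CPM, log axis) in CD45-negative cell types, 1 point per type and library, with grey lines from no alopecia to alopecia. Most lines run down and to the left, and in the bulge or outer root sheath, whose sums were 26732 and 27600 CPM, the line is short for Socs3 and runs down for Cish.

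Some unnamed clusters repeated these orders. A CD45-negative cluster led by Crabp1 and Dkk2 held 1226, 1429 and 704 CPM of Socs3 (-1.02 for alopecia against no alopecia), and a cluster led by Sostdc1 and Fst 781, 739 and 347 CPM (-1.09). Of the lymphoid clusters without a name, the one led by Gzmc had 56.9, 44.7 and 116 CPM of Bcl2 (1.38, 0.89 to 1.89, against no alopecia).

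Across 91 profiles of a type or cluster in 1 library, genes with the most similar patterns were named by Pearson correlation of log2(CPM + 10) among 9257 genes, as a description, since profiles of 1 library share depth and free RNA. For Cish these were Rasgrp1 (0.86), Zc3h12a (0.83) and Aebp2 (0.82), for Socs1 S100a4 (0.89), Arf4 (0.88) and Anxa6 (0.88), and for Socs2 Camk2n1 (0.82), Ttc28 (0.76) and Plpp5 (0.76). Socs3 was most like Cebpd (0.80), Ifitm3 (0.77) and Sbno2 (0.77), Pim1 like Kdm6b (0.91), Gpr132 (0.91) and Cxcr4 (0.90), Pim2 like Ctsw (0.94) and Gpr171 (0.94), and Bcl2 like Rasl11b (0.74), Nap1l5 (0.73) and Parp16 (0.73). Among the 7 genes, Socs1 and Pim2 were the closest pair (0.71) and Socs3 and Pim2 the most opposed (-0.50).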

How the data were processed

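The deposited files hold raw UMI counts per gene and cell barcode, made by the authors with Cell Ranger 7.1.0 against mm10, per the submitters' processing notes. The sources used here do not name the annotation release or say whether intron reads were counted. A barcode was kept if it had 500 UMIs or more, 300 genes or more and no more than 10% mitochondrial UMIs, which with doublet removal left 40862 of 48101. Doublets were scored with Scrublet as implemented in scanpy 1.11.5. Its automatic threshold marked almost none, so the highest-scoring cells were removed at 0.4% per 1000 barcodes.

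Each sort was scaled to 10000 UMIs per cell and clustered (2000 variable genes without the 7 genes and the gene lists other than T-cell receptor genes, 30 components, 15 neighbours, leidenalg 0.10.2 at resolution 1.0, seed 0). Lymphoid clusters were clustered again. Clusters were named from 38 marker sets, with at least 3 markers detected and a score of at least 1.0 (0.5 for lymphoid clusters), and others stayed unnamed. The scoring rule was set after seeing the data, and names rebuilt in this way may differ from the authors'. UMIs were summed per type and library and given per 1000000. Ratios carry exact conditional binomial intervals at 95% (scipy 1.17.1). For shares of cells with a UMI, cells were thinned to 1000 UMIs. A count of 0 is bounded by its exact binomial limit. The scripts were tested on simulated data.

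All 7 genes were described in every type of at least 100 cells. The 3 genes most like each were taken by correlation of log2(CPM + 10) among genes of at least 50 CPM in 1 profile, and up to 4 genes of each of 8 lists could be named, those with the bound farthest from equality. Of the genes most like Pim2, 1 is not reported here. The genes and lists were chosen with earlier results of these data known. TMM factors came from edgeR 4.0.16. With 1 library per group no test of groups was made.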

Additional observations from a re-analysis of the deposited data

Results flagged for a closer look

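Under the same contrast, some genes moved in opposite directions between cell types or, for Cish, between whole libraries of the sorts. None of these differences was tested. They are given as the difference of the 2 log2 ratios.

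For no alopecia against wild type, Cish differed by -1.47 between whole CD45-positive (-0.32) and CD45-negative (1.15) libraries, which is not a comparison of cell types. In CD45-negative basal keratinocytes Cish stood at 206 CPM in wild type and 179 in no alopecia. These cells numbered 122 of 3285 kept cells in wild type and 2876 of 14391 in no alopecia. Socs2 differed by 2.43 between group 2 innate lymphoid cells (1.04) and CD45-positive fibroblasts (-1.39), and by 2.86 between melanocytes (2.05) and the bulge or outer root sheath (-0.81). Socs1 differed by 2.36 between the same 2 types (1.32 and -1.04). Socs3 differed by 1.80 between regulatory T cells (0.98) and macrophages (-0.83), and by 1.21 between blood endothelium (0.61) and basal keratinocytes (-0.61). Pim2 differed by 1.66 between regulatory T cells (0.98) and type 2 dendritic cells (-0.67). In marker-defined regulatory T cells the gaps were smaller, at 31.3 CPM in wild type and 39.0 in no alopecia for Pim2. For Socs3 the levels there were 167 and 219 CPM.

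For alopecia against wild type, Socs2 differed by 2.64 between group 2 innate lymphoid cells (0.80) and CD45-positive suprabasal keratinocytes (-1.84). The first of these ratios lost its call under 5 of 10 other choices, and the second became 1.36 without the cell filter, so that the opposite directions were lost there. Socs2 also differed by 2.67 between melanocytes (1.63) and the bulge or outer root sheath (-1.04). Socs3 differed by 2.09 between mast cells (0.73) and group 2 innate lymphoid cells (-1.36).

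For alopecia against no alopecia, Cish differed by 2.68 between CD45-positive fibroblasts (1.55, from 16 and 8 UMIs, a call lost under 5 of 10 other choices) and dendritic epidermal T cells (-1.13). Socs3 differed by 2.06 between macrophages (0.60, a call lost under 8 of 9 other choices) and dendritic epidermal T cells (-1.46). Bcl2 differed by 1.65 between suprabasal keratinocytes (0.93) and the inner root sheath (-0.73) of the CD45-negative sort.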

How the results depend on the processing

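No paired analysis was possible because each group had 1 library per sort. The 111 called ratios were recomputed under 11 other choices, which gave 1059 values: 981 stayed close in size, 906 were still calls, 71 moved and 7 reversed, and 47 ratios were calls under every choice computed. Types defined by marker UMIs of each cell, which could be had for 13 ratios, lost 8 calls. No doublet removal lost 24 of 106, removal at 0.8% per 1000 barcodes 22 of 109 and resolution 2.0 lost 17 of 84. Bcl2 in CD45-positive fibroblasts for alopecia against no alopecia became -0.023 at resolution 2.0, and Bcl2 in type 2 dendritic cells for no alopecia against wild type 0.80 without cells other than T cells that held T-cell receptor UMIs. Without the cell filter, Cish and Socs2 in CD45-positive suprabasal keratinocytes for alopecia against wild type became 3.36 and 1.36. Pim1 in dendritic epidermal T cells for alopecia against no alopecia was 0.0082 with doublets removed at 0.8%, Socs2 in CD45-positive fibroblasts -0.067 without doublet removal, and Socs3 in CD4 T cells against wild type 0.015 in marker-defined cells. Comparisons within clusters were chosen after seeing the data. Of 68, 65 kept the direction and 3 reversed: Socs3 in CD4 T cells, 0.10, and in dermal gamma delta T cells for no alopecia against wild type, -0.39 and -0.52. In the CD45-positive sort, calls among the 7 genes went from 20 to 11 (alopecia against no alopecia) and from 14 to 8 (no alopecia against wild type) at resolution 2.0, and from 28 to 12 (alopecia against wild type) and 14 to 5 without the T-cell receptor cells, where types fell under 100 cells. In the CD45-negative sort they went from 13 to 21 without the cell filter (alopecia against wild type) and from 12 to 20 without doublet removal (no alopecia against wild type). TMM shifted types by -0.21 to 0.25 on the log2 scale, and Cish and Socs3 stayed lower in alopecia than in no alopecia in 9 of 9 CD45-negative types. The cause of these moves was not tested otherwise. Depth limits Pim2 and Socs2, whose counts were under 20 in several types.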
